A study of Mus musculus with 7 samples.

Results

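Genes that mark eosinophils, basophils and mast cells were followed in splenic B-cell isolates of Eµ-miR-155 transgenic and wild-type mice. The 8 genes are the eosinophil genes Ear2, Ear3, Prg2 and Epx and the basophil and mast cell genes Mcpt8, Cpa3, Fcer1a and Ms4a2. They were chosen by name, and a gene was read only from probe sets whose annotation names that gene and no other. Of the 8 genes, 7 have such a probe set, 8 probe sets in all, among 18193 genes so covered on the array. Ear2 is named by none and is not analysed here.

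The 3 transgenic (TG) mice overexpress miR-155 from a transgene with Eµ, an immunoglobulin heavy chain enhancer that acts in the B lineage. The 4 wild-type (WT) mice are the controls, and both groups are of the FVB strain. B cells were taken from spleens with a magnetic isolation kit, and each of the 7 arrays is taken as 1 mouse. The labels give neither age nor sex, nor do they say which surface markers the kit uses. The mature form of the overexpressed RNA in mouse is shown with its seed, bases 2 to 8, in capitals (RefSeq, GRCm38.p6, chr16:84714143-84714165, plus strand).
mmu-miR-155-5p: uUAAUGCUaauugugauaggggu

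Eosinophils are granulocytes whose granules hold major basic protein, a peroxidase and small ribonucleases. Basophils and mast cells store histamine and proteases and carry the high-affinity receptor for IgE, built from an alpha chain that binds IgE, a beta chain and a pair of gamma chains. All are minor populations of the spleen, and a B-cell isolate should hold few of them.

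Levels are given as log2 GCRMA values, as deposited by the authors, so a step of 1 is a doubling. The lowest value in the table is 2.17, at which 35.6% to 37.1% of the probe sets of each array stand, and 4 serves as the background level. B cell markers were bright in both groups, with a mean over 9 genes of 12.66 to 13.19 on TG arrays and 13.32 to 13.44 on WT arrays. TG replicate 3 stood apart: its mean over 9 T cell markers was 7.32, against 3.01 and 3.13 on TG replicates 1 and 2 and 2.77 to 2.81 on WT arrays. Xist, which is transcribed in female cells, was at 13.73 to 13.93 on the TG arrays, at 13.79 and 13.61 on WT replicates 1 and 2, and at 2.22 and 2.81 on WT replicates 3 and 4. Sex and genotype are thus partly confounded. P-values set the TG minus WT difference against the spread between arrays of a group. The small number of arrays limits the precision throughout. In such bulk RNA, fewer cells of a type and less RNA per cell cannot be told apart.

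Most of the measured genes of the set were above background on no array. Of the 7 measured genes, 1 (Ear3) was above background on every TG array, 1 (Prg2) was above it on a single TG array, and 5 (Epx, Mcpt8, Cpa3, Fcer1a and Ms4a2) were above it on no array. No member was above background on any WT array. The defining markers of basophils and mast cells were therefore at or near the lowest value in both groups, and so was eosinophil peroxidase. Over all named probe sets, 47.0% were above background on no array, against 6 of the 8 member probe sets. The other patterns are rarer: 0.469% of named probe sets were above background on all 3 TG arrays and no WT array, as Ear3 was, and 1.47% on TG replicate 3 alone, as Prg2 was.

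**Figure D1:**
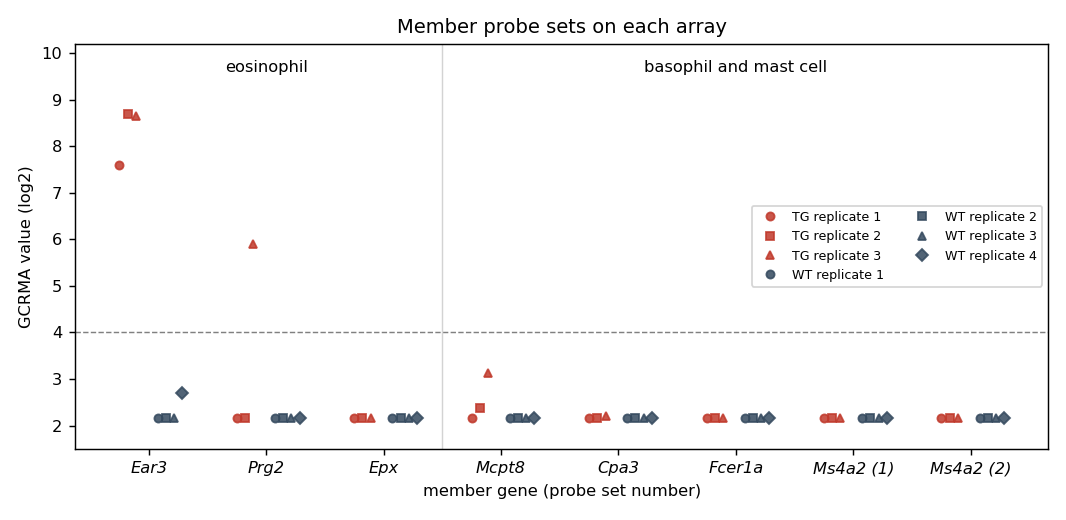
GCRMA values (log2, vertical axis) of the 8 member probe sets on each array, TG arrays in red on the left of each pair and WT arrays in dark blue on the right, with a symbol for each replicate. The dashed line marks the background level of 4. Ear3 lies between 7.59 and 8.69 on the TG arrays, Prg2 at 5.91 on TG replicate 3, and all other points are under the line.

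Ear3, which encodes a member of the mouse family of eosinophil-associated ribonucleases, was the member with a clear difference. Its values were 7.59, 8.69 and 8.65 on TG replicates 1, 2 and 3, against 2.17, 2.17, 2.17 and 2.70 on WT replicates 1 to 4. The groups did not overlap, and the gap between the lowest TG and the highest WT value, 4.89, was larger than the range of 1.10 among TG arrays. The mean was 8.31 ± 0.62 in TG (SD, n = 3) and 2.30 ± 0.27 in WT (SD, n = 4). The fitted difference, TG minus WT, was 6.01 ± 0.30 (SE) with an adjusted p of 0.000745 by limma. Since every WT value is at background, that difference is not exact. Set against the level of 4, Ear3 was at least 19.9-fold higher in TG isolates.

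Ear3 was the 1 member probe set that passed the filter on dim values. It passed through its 3 TG values alone, so it had to be higher in TG, and its count of 1 is no support for a direction. Among all 20994 tested, 5.63% were called as higher and 9.28% in either direction, and 14.2% had every TG value above every WT value. Its adjusted p was 0.0577 when WT replicates 3 and 4 were both left out, with a difference of 6.14 (limma), and 0.00823 when TG replicate 3 and WT replicate 4 were both left out.

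The Ear3 reading cannot be assigned to that gene alone. Its probe set has the suffix that the manufacturer gives to sets whose probes may also pair with transcripts of other genes, and several mouse ribonuclease genes of this family are close copies. RefSeq windows around the start were at hand for Ear2, Ear1, Ear10, Ear6 and Ear14, none of them the window of Ear3. Aligned over windows from 250 bases before to 50 after their starts, Ear2 and Ear1 shared 99.0% of bases and Ear2 and Ear10 shared 93.2%, while Ear2 shared 92.8% with Ear6 and 58.4% with Ear14. The stretches shown are 100 bases long and come from the 3 genes that hold a match to the C/EBP motif TTGCNNAA, at which they are anchored; Ear6 and Ear14 hold none. They lie at chr14:44102504-44102603 (plus strand) for Ear2, chr14:43819692-43819791 (minus strand) for Ear1 and chr14:43923651-43923750 (minus strand) for Ear10, in GRCm38.p6. Capitals mark the 7 positions at which the 3 genes are not all the same.
Ear2: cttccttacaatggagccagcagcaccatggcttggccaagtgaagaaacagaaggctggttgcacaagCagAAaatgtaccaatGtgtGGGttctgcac
Ear1: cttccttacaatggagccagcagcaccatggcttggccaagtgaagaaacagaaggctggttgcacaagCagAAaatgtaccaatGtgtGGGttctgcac
Ear10: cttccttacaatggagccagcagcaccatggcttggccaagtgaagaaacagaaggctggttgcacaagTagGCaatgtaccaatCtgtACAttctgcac
Ear2 and Ear1 are the same in this stretch, and all 7 differences set Ear10 apart. The C/EBP motif was found in 10.8% of 32851 such windows, searched on both strands. Upstream sequence does not show how the transcripts pair with the probes, which was not tested.

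Other ribonucleases and granule proteins of the same kind were dim. Rnase2a, a member of the same ribonuclease family, was at 3.64, 4.57 and 4.13 on TG replicates 1, 2 and 3 and at 2.27, 2.17, 2.41 and 2.29 on WT replicates 1 to 4. Those groups did not overlap either, but the gene was above background on 2 arrays, too few to be tested. Rnase2b stood at the lowest value on all 7 arrays. Of the 10 genes listed as relatives of the eosinophil ribonucleases and granule proteins, 3 have a probe set and 0 passed the filter.

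The genes whose profile over the 7 arrays was nearest to that of Ear3 were Emb, Hp and Ms4a3. Each profile was centred on its own mean, and the root mean square distances on the log2 scale were 0.42, 0.51 and 0.51, out of 9516 genes compared. Emb encodes a cell adhesion glycoprotein, Hp haptoglobin and Ms4a3 a membrane protein of granulocyte and monocyte progenitors. Ms4a3 was at 7.03, 7.46 and 9.11 on TG arrays and at 2.17 on each WT array, and was at least 14.6-fold higher in TG isolates (limma adjusted p = 0.00438). The 3 genes and Ear3 were read from the same 7 arrays, and all 4 were high in TG.

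Prg2, which encodes the precursor of major basic protein, was above background on TG replicate 3 alone. It was at 5.91 there, at 2.17 on TG replicates 1 and 2, and at 2.17 on every WT array. The groups overlap. When probe sets above background on 1 array or more were admitted, the fitted difference was 1.25 ± 0.92 (SE, limma adjusted p = 0.384), so Prg2 did not pass. Prg3, its paralogue and next neighbour on chromosome 2, reached 2.20 on TG replicate 3 and stood at 2.17 elsewhere.

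On TG replicate 3 alone, 7 of 9 T cell markers and 3 of 9 monocyte and macrophage markers were also above background. Among all genes with a probe set the share was 1.69%. The macrophage genes among those markers were the complement genes C1qa, at 5.97, and C1qb, at 5.72, and Cd5l, at 5.44. Their part in the Prg2 value was not tested. Without that array no member other than Ear3 would stand above background anywhere.

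Epx, which encodes eosinophil peroxidase, was at 2.17 on all 7 arrays. Its close relative Mpo, the peroxidase of neutrophils and their precursors, lies 3 protein-coding genes away on chromosome 11. Mpo was at 12.84, 13.25 and 13.93 on TG replicates 1, 2 and 3, against 2.88, 2.85, 3.23 and 6.95 on WT replicates 1 to 4, a fitted difference of 9.36 ± 1.04 (SE, limma adjusted p = 0.00956). Without TG replicate 2 its adjusted p was 0.0561. Between Mpo and Epx, the lactoperoxidase gene Lpo was at 2.17 on every array and Mks1, a ciliary gene, at 7.88 to 8.06 on TG and 7.87 to 8.14 on WT arrays. Of the 3 peroxidase genes of this stretch, the neutrophil one was thus bright on TG arrays while those of eosinophils and secretory epithelia were at the lowest value.

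Mcpt8, which encodes a protease of mouse basophils, stayed under background on every array. It was at 2.17, 2.38 and 3.14 on TG replicates 1, 2 and 3 and at 2.17 on each WT array, and with no filter the fit gave a difference of 0.39 ± 0.23 (SE, limma adjusted p = 0.604). The gene lies in a cluster of serine proteases of mast cells, neutrophils and cytotoxic lymphocytes on chromosome 14. The next gene is Ctsg, encoding cathepsin G of neutrophil and mast cell granules, which was at 10.07, 10.56 and 11.53 on TG arrays and at 2.45, 2.45, 2.51 and 3.14 on WT arrays. Ctsg was at least 105-fold higher in TG isolates (limma adjusted p = 0.000512). Like Ear3, Ctsg passed the filter through its TG values alone, so it had to be higher. The mast cell proteases Mcpt1, Mcpt2, Mcpt4 and Cma1 and the granzymes Gzmd, Gzme, Gzmf, Gzmg and Gzmn around it were above background on no array. Of the 10 measured genes among the 12 nearest neighbours of Mcpt8, 9 were above background on no array and Ctsg was the other. The share above background on no array was 45.0% among all genes with a probe set.

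**Figure D2:**
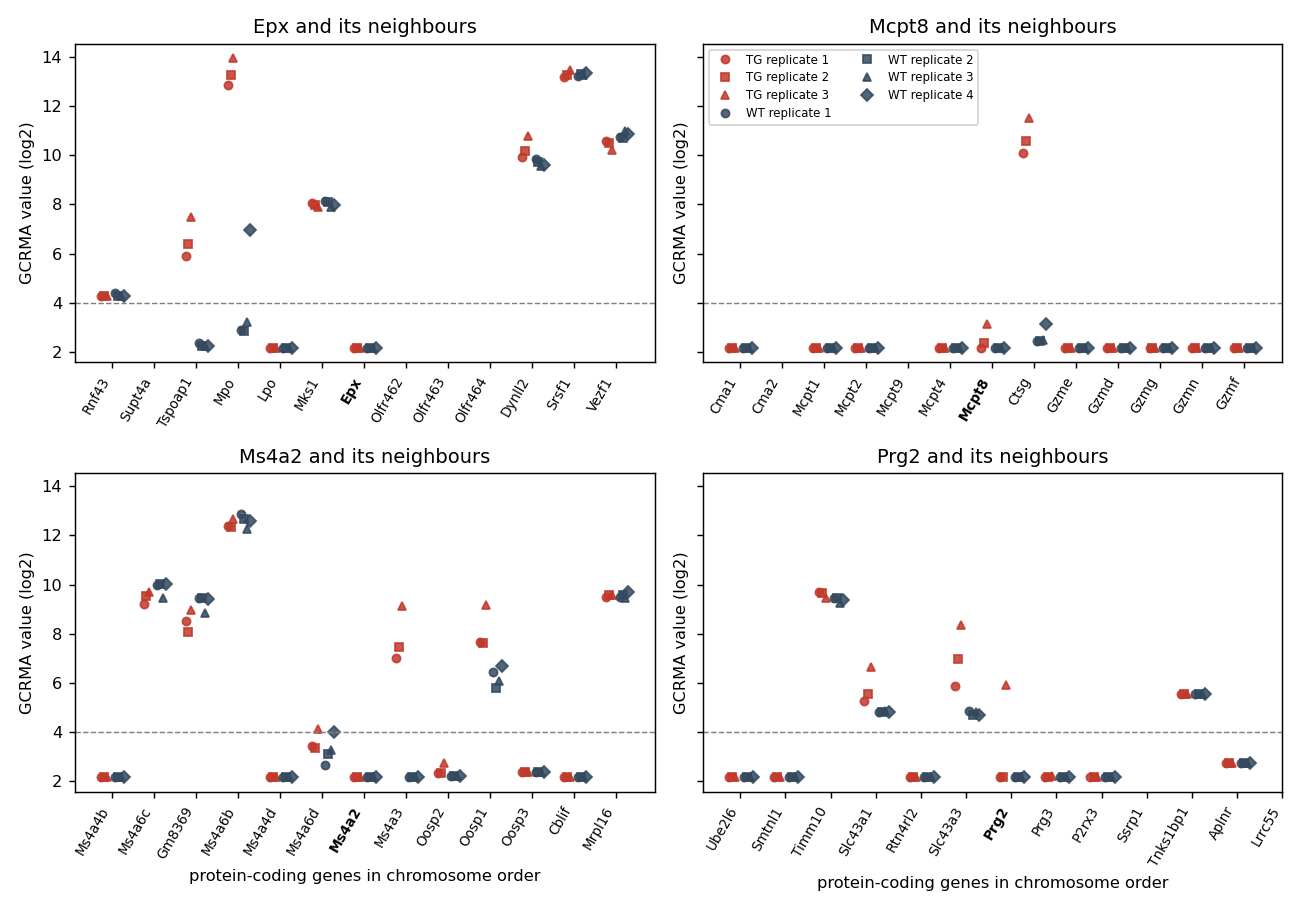
GCRMA values (log2, vertical axis) of Epx, Mcpt8, Ms4a2 and Prg2 (bold) and of their 6 nearest protein-coding genes on either side, in chromosome order along the horizontal axis. TG arrays are red and on the left of each pair, WT arrays dark blue and on the right, with a symbol for each replicate. A gene with no points has no probe set naming it alone. Epx, Mcpt8 and Ms4a2 lie under the dashed background line at 4 while Mpo, Ctsg and Ms4a3 near them lie far above it on TG arrays.

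Cpa3, which encodes carboxypeptidase A3 of mast cell granules, was at 2.17, 2.17 and 2.21 on TG replicates 1, 2 and 3 and at 2.17 on each WT array. These values do not differ beyond the lowest level of the table. Other mast cell proteases were as dim. Among all genes with a probe set, 45.0% were above background on no array. Of 9 measured genes in a list of mast cell proteases, 7 were above background on no array, among them the tryptase genes Tpsb2, Tpsab1 and Tpsg1, whose highest value was 2.19. The other 2 were Ctsg and Gzmb, which neutrophils and cytotoxic cells also make. Gzmb was at 2.21, 2.80 and 8.49 on TG replicates 1, 2 and 3 and at 2.17 or 2.18 on WT arrays, so it too was bright on TG replicate 3 alone.

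The IgE receptor had its shared chain without its specific ones. Fcer1a, the alpha chain that binds IgE, was at 2.17 on all 3 TG arrays and all 4 WT arrays. Ms4a2, the beta chain, was at 2.17 on every array by both of its probe sets. Fcer1g, the gamma chain, which other Fc receptors of myeloid and natural killer cells also use, was at 7.90, 8.53 and 9.41 on TG arrays and at 4.94, 5.21, 5.42 and 5.996 on WT arrays. Its groups did not overlap, and it rose by 3.22 ± 0.40 (SE, limma adjusted p = 0.0124). That call was lost without WT replicate 2 (adjusted p = 0.0542) or TG replicate 2 (0.0671). Next to Ms4a2 on chromosome 19 lies Ms4a3, which rose as given above. Of the 12 measured neighbours of Ms4a2, 5 were above background on no array, against 45.0% of all genes with a probe set.

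The promoters of these dim genes are shown because 3 of the 4 basophil and mast cell members, Cpa3, Fcer1a and Ms4a2, hold the GATA motif AGATAA, and GATA1 and GATA2 are known regulators of these lineages. Each window runs from 250 bases before to 50 after the start (RefSeq, GRCm38.p6, all on the minus strand), at chr3:20242132-20242431 for Cpa3, chr1:173227180-173227479 for Fcer1a and chr19:11623670-11623969 for Ms4a2. Capitals mark AGATAA or its reverse complement, at position -46 in Cpa3, -92 in Fcer1a and -224, -37 and -11 in Ms4a2, counted from the start to the first base of the match in reading direction.
Cpa3: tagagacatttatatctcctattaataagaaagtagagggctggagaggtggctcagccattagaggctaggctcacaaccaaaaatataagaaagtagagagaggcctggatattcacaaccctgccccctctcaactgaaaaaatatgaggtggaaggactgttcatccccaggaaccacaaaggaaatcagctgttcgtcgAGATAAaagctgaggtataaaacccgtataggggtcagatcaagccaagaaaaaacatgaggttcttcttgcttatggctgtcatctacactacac
Fcer1a: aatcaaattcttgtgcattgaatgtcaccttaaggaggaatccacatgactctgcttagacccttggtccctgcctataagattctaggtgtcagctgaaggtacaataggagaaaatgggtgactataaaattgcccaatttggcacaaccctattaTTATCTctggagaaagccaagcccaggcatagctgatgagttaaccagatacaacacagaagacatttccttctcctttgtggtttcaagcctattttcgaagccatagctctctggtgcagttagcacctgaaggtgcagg
Ms4a2: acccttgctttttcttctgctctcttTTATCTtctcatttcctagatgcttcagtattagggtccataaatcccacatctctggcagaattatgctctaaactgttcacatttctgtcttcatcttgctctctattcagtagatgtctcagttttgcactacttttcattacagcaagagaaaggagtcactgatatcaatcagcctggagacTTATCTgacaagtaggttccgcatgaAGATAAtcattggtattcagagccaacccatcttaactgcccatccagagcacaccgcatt
On both strands AGATAA was found in 11.2% of all 32851 windows and the other GATA motif searched, TGATAA, in 9.05%; the members' windows held no TGATAA. Neither motif was found in the windows of Mcpt8, Epx or Ear2. Of the motifs searched, Fcer1a also held TTGCNNAA, at -118. Such matches are letters in a window and say nothing of binding.

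The factors themselves were measured on the same arrays. Gata2, a regulator of basophils, mast cells and blood progenitors, was above background on no array and reached 3.64 on TG replicate 3, against 2.38 and 2.40 on the other TG arrays and 2.38 to 2.45 on WT arrays. Gata1, which eosinophil, mast cell, erythroid and megakaryocyte precursors use, was at 3.76, 5.17 and 6.33 on TG replicates 1, 2 and 3 and at 2.31 to 2.51 on WT arrays. The groups do not overlap, and with 2 arrays above background Gata1 was not tested. Mitf, a mast cell regulator, was above background on TG replicate 3 alone, at 5.63. Cebpa, a regulator of granulocytes, was at 4.61, 6.22 and 7.20 on TG arrays and at 2.19 to 2.24 on WT arrays, at least 4.03-fold higher (limma adjusted p = 0.0176). Tal1, which is active in blood progenitors and the erythroid, megakaryocyte and mast cell lineages, was at least 5.93-fold higher (limma adjusted p = 0.0145). The Cebpa call was lost without WT replicate 2, 3 or 4 or TG replicate 2 (adjusted p from 0.0515 to 0.0781), and the Tal1 call without TG replicate 2 (0.0716). With values under 4 set at 4, the level the bounds use, Tal1 passed (adjusted p = 0.0245) and Cebpa did not (0.0693). With the Xist level as a covariate neither passed (0.0659 for Tal1 and 0.0731 for Cebpa). Cebpb and Zfpm1 differed by 0.49 (limma adjusted p = 0.0749) and 0.77 (0.102) and did not pass. Of 10 tested lineage factors, 2 rose and 0 fell, against 8.11% and 2.56% of all 9517 genes tested. Both that rose, Cebpa and Tal1, passed the filter through their TG values alone. They had to be higher in TG, so their count is no support for a direction. The median difference of the 10 was 0.35, and that of all genes 0.00.

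Of 11 tested signalling genes that act below the IgE receptor, many of which B and T cells share, 2 rose and 0 fell, against 8.11% and 2.56% of all genes tested. Their median difference was -0.03. Besides Fcer1g, the gene that rose was Lcp2, encoding the adaptor SLP-76 of T cells, myeloid cells and mast cells. It was at 7.58, 8.07 and 10.49 on TG arrays and at 4.76, 4.51, 2.96 and 4.69 on WT arrays, a difference of 4.48 ± 0.79 (SE, limma adjusted p = 0.0252). The call was lost when any 1 WT array or TG replicate 2 was left out, with adjusted p from 0.0581 to 0.0852. Grap2 (-0.99, limma adjusted p = 0.0777) and Btk (-0.42, limma adjusted p = 0.137), an adaptor and a kinase, did not pass. Lat, the membrane adaptor of T cells and mast cells, was at 6.65 and 6.76 on TG replicates 1 and 2 and at 11.41 on TG replicate 3, against 5.82 to 6.60 on WT arrays, and did not pass (limma adjusted p = 0.303). Gab2, an adaptor that mast cells use, was at 3.46, 4.61 and 5.79 on TG arrays and at 2.31 to 2.46 on WT arrays, and was not tested.

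Of 10 measured receptor and enzyme genes of eosinophils, 5 were above background on no array, near the share of 45.0% among all genes with a probe set. The eotaxin receptor Ccr3, the lipoxygenase Alox15 and the prostaglandin receptor Ptgdr2 were at 2.17 on every array, and the lectin gene Siglecf reached 2.46. Adgre4 was at 2.52 on the TG arrays and at 2.52, 2.52, 2.54 and 3.78 on WT arrays. Il5ra, the alpha chain of the interleukin-5 receptor, which some B cells also carry, was at 5.11, 5.53 and 6.31 on TG arrays and at 5.19, 4.78, 5.26 and 5.18 on WT arrays, so the groups overlapped (difference 0.55 ± 0.28 SE, limma adjusted p = 0.242). Of 5 tested genes of this list, 2 rose and 0 fell, against 8.11% and 2.56% of all genes tested. Of the 2, Csf2rb2 passed the filter through its TG values alone, so it had to be higher. Csf2ra, the alpha chain of the GM-CSF receptor, was at 8.71, 9.29 and 9.74 on TG arrays and at 7.74, 7.60, 7.56 and 7.45 on WT arrays, and rose by 1.66 ± 0.23 (SE, limma adjusted p = 0.0164). It did not pass without WT replicate 2 (adjusted p = 0.0606) or TG replicate 2 (0.0756). Csf2rb2, a beta chain of the mouse interleukin-3 receptor, was at least 2.60-fold higher (limma adjusted p = 0.0422). That call was lost without any 1 WT array (adjusted p from 0.0948 to 0.111) or without TG replicate 2 (0.119). With values under 4 set at 4, as in the bound, the difference was 1.38 and did not pass (limma adjusted p = 0.159). Csf2rb, the common beta chain of the interleukin-3, interleukin-5 and GM-CSF receptors, differed by 1.40 ± 0.35 (SE) and Adgre1, a macrophage and eosinophil surface protein, by 1.31 ± 0.41 (SE). Neither passed by limma, with adjusted p of 0.0544 and 0.0924.

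Further basophil genes and the enzymes of histamine and lipid mediators were dim only in part. Of 10 measured mediator genes, 4 were above background on no array and 5 were above it on every WT array. Among all genes with a probe set, 45.0% were above background on no array. Of 10 measured basophil genes, 6 were above background on no array, among them Cd200r3, Il4 and Itga2. Another 2, the chemokine genes Ccl3 and Ccl4, were above it on TG replicate 3 alone, against 1.69% of all genes with a probe set. The other 2 were tested and did not pass: Il3ra, the alpha chain of the interleukin-3 receptor, differed by 0.45 (limma adjusted p = 0.302) and Osm by -0.10 (0.435). Hdc, the enzyme that makes histamine, was at 2.87, 3.74 and 3.52 on TG arrays and at 2.25, 2.19, 2.25 and 2.25 on WT arrays, without overlap but under background throughout. Ltc4s, for leukotriene C4, and Tph1, for serotonin, were at 2.17 on every array. Alox5ap, needed for leukotriene synthesis in many leukocytes, was the 1 of 5 tested mediator genes that rose, against 8.11% of all genes tested. It was at 10.23, 10.67 and 11.44 on TG arrays and at 8.75, 8.28, 7.51 and 8.52 on WT arrays, a difference of 2.52 ± 0.38 (SE, limma adjusted p = 0.0188). It did not pass without WT replicate 2 or 4 or TG replicate 2, where the highest adjusted p was 0.077. Srgn, the core protein of granule proteoglycan, was at 14.29 to 14.35 on TG and 14.12 to 14.24 on WT arrays and did not pass (limma adjusted p = 0.0855). Hpgds and Ndst2 did not pass either, with limma adjusted p of 0.372 and 0.386.

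**Figure D3:**
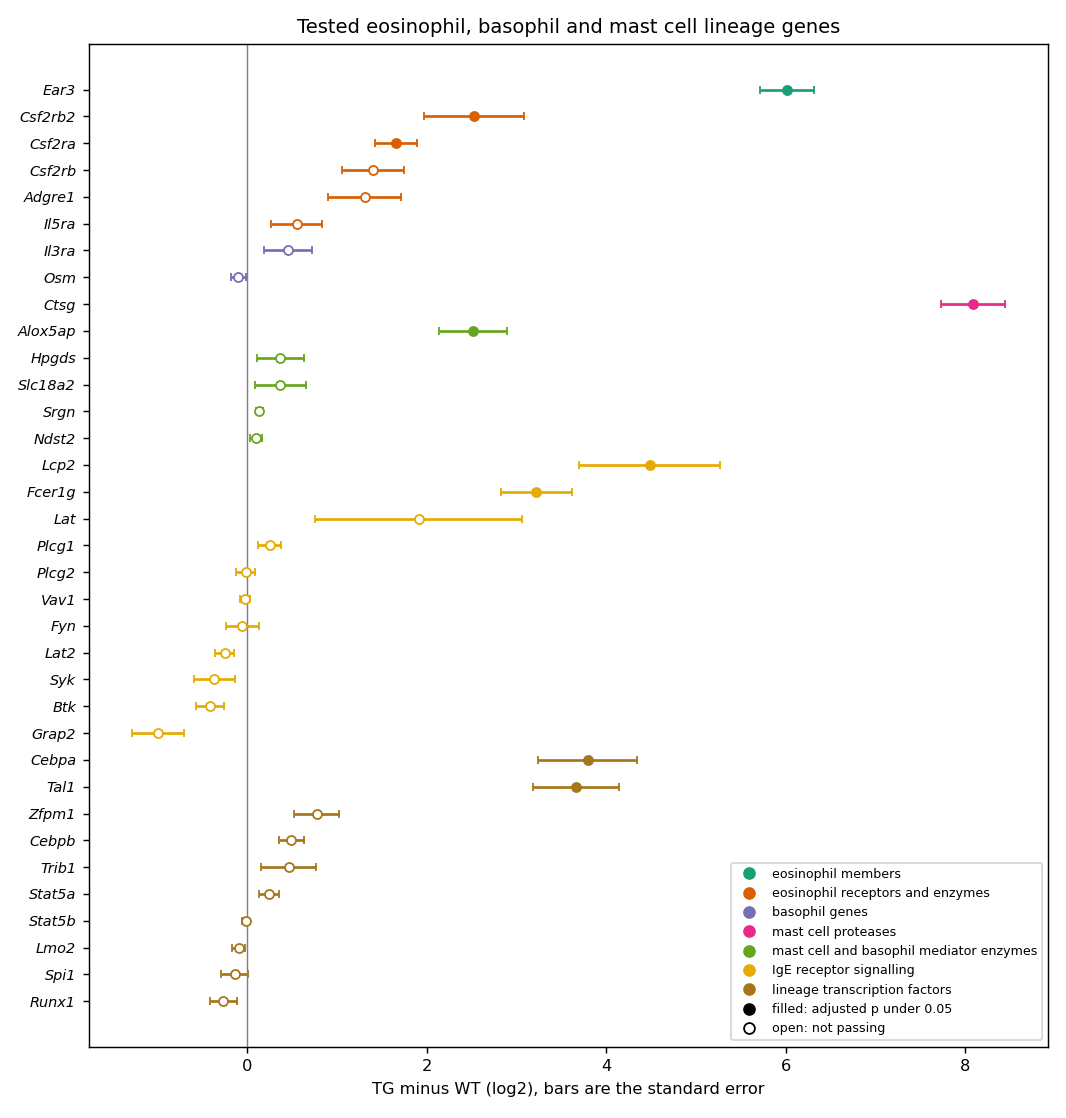
Fitted differences, TG minus WT (log2, horizontal axis), with standard errors, for Ear3 and the tested genes of 6 lists around the eosinophil, basophil and mast cell lineages, coloured by list. Filled points passed an adjusted p under 0.05 by limma and open points did not. Ear3 lies at 6.01 and Ctsg at 8.08. For Ear3, Ctsg, Csf2rb2, Cebpa and Tal1, which were above background on no WT array, the plotted value is not exact.

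Markers of other blood cells moved on the same arrays as Ear3. Of 13 measured neutrophil markers, 6 were tested and 6 rose, and their mean level over the 13 was 6.43 to 7.34 on TG and 2.61 to 3.24 on WT arrays. S100a8 and Ctsg had the smallest p among them. Of the 13, 3 (Mmp8, Mmp9 and Cxcr2) were above background on no array. Another 4, the granule genes Ltf, Camp, Ngp and Lcn2, were above it on 1 or 2 TG arrays and were not tested; Ngp was at 7.68, 2.34 and 5.80 on TG replicates 1, 2 and 3 and at 2.17 or 2.18 on WT arrays. Of 12 progenitor markers, 6 of 7 tested rose, with mean levels of 5.05 to 6.55 on TG and 3.36 to 3.64 on WT arrays. Flt3, a progenitor receptor, rose by 1.86 ± 0.13 (SE, limma adjusted p = 0.00271). The monocyte and macrophage list of 9 genes had a mean of 5.14 to 7.37 on TG and 3.70 to 5.09 on WT arrays, with Cd68 and Ccr2 among its 2 of 5 tested genes that rose. The erythroid list had a mean of 5.15 to 6.74 on TG and 4.05 to 4.09 on WT arrays, with 3 of 5 tested genes higher, and the megakaryocyte list 9.67 to 10.75 on TG and 6.11 to 8.42 on WT arrays, with 2 of 7 higher. For 8 natural killer cell markers the means were 4.14 to 5.69 on TG and 2.89 to 2.95 on WT arrays, with 2 of 3 tested genes higher, Klrd1 and Gzma. Over all genes tested, 8.11% were called as higher and 2.56% as lower. Many of these markers passed the filter through TG values alone and had to be higher. Of the genes called, those above background on no WT array were 3 of 6 neutrophil, 3 of 6 progenitor and 3 of 3 erythroid genes. They were also 1 of 2 monocyte and macrophage genes and 2 of 2 natural killer genes. Mpo and Prtn3 were above background on 1 WT array and Kit on 2, so they too needed their TG values to pass the filter. The counts of these lists are no support for a direction. Of 9 tested B cell markers, 0 were higher and 1, Fcer2a, the low-affinity IgE receptor of B cells, was lower (-0.82 ± 0.19 SE, limma adjusted p = 0.0451). Among these named markers, the calls of Cd68, Ccr2, Gzma and Fcer2a were each lost when 1 of several arrays was left out, TG replicate 2 among them, with adjusted p of 0.0542 to 0.126. Both megakaryocyte genes called, Pf4 and Gp9, were lost without any 1 of WT replicates 2, 3 and 4 or TG replicates 2 and 3, with adjusted p from 0.0600 to 0.0994. With values under 4 set at 4, Ccr2 and Gzma did not pass either (adjusted p = 0.155 and 0.076). How far these cells contribute to the Ear3 level was not tested. Above background on no array were 4 of 8 natural killer, 4 of 12 progenitor, 3 of 9 erythroid and 3 of 13 neutrophil markers. For monocyte and macrophage markers the count was 0 of 9 and for megakaryocyte markers 0 of 7. It was 4 of 4 for the measured basophil and mast cell members, against 45.0% of all genes with a probe set.

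**Figure D4:**
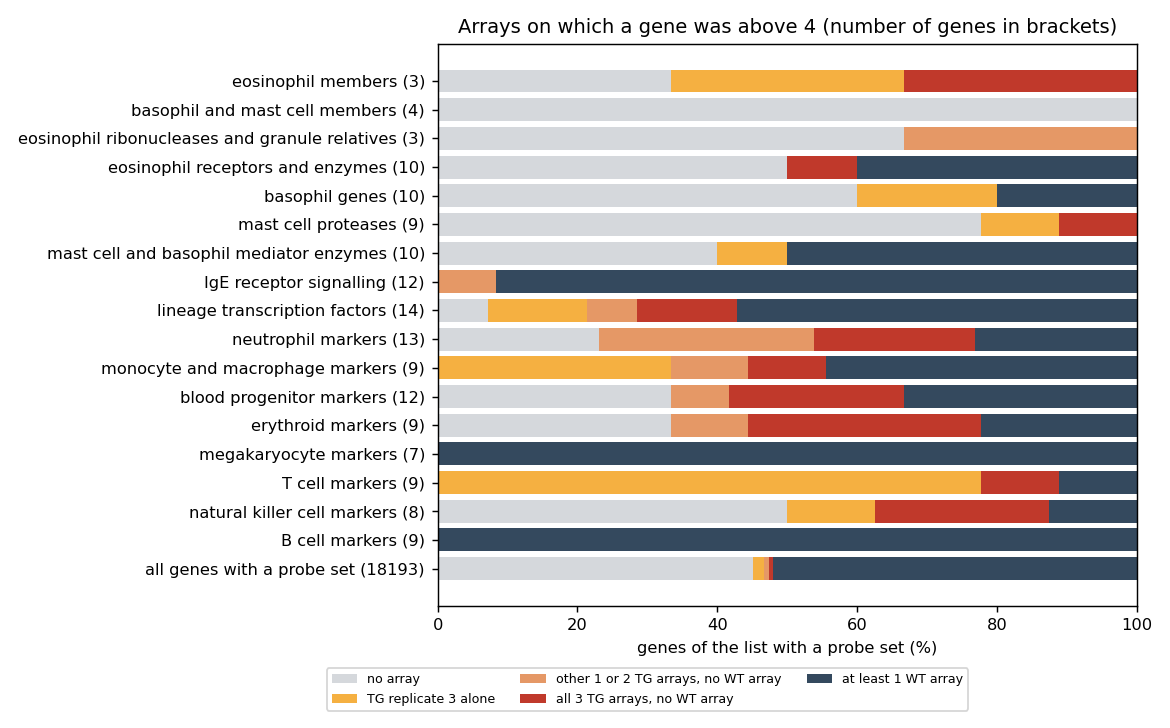
Share of the genes of each list (percent, horizontal axis; number of genes with a probe set in brackets) by the arrays on which the gene was above 4, read from its brightest probe set. Grey marks genes above it on no array, yellow on TG replicate 3 alone, orange on another 1 or 2 TG arrays, red on all 3 TG arrays and no WT array, and dark blue on at least 1 WT array. The 4 basophil and mast cell members are all grey, and 7 of 9 T cell markers are yellow.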

How the data were processed

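The authors deposited log2 values made with GCRMA, per the submitters' processing notes. That method uses probe sequence to correct background and then normalizes and summarises the probes. No genome build is stated for the array, so coordinates are given only with printed sequences; those are RefSeq's. Of 45101 probe sets, 64 are controls, 34945 name 1 gene, 932 several and 9160 none.

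Control probe sets were left out, and a probe set was tested if at least 3 of the 7 values, from either group, exceeded 4. The difference between TG and WT arrays was fitted in R 4.3.3 by limma 3.58.1 (lmFit, eBayes with an intensity trend), two-sided, with Benjamini-Hochberg adjustment over all 20994 probe sets, at 0.05. A gene was read from its brightest probe set over all 7 arrays. A gene at or under 4 on every WT array has only a bound, its TG mean against 4. Where such a gene was tested, it passed the filter through its TG values alone and had to be higher in TG. Neighbouring genes were taken from the order of genes in RefSeq (GRCm38.p6). The procedure was tested on simulated data.

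The rule picked all members, up to 4 genes of smallest p in each list around the lineages, up to 2 in each marker list, and 3 genes nearest to Ear3. Of the marker genes so picked, Cd3g, Cd8a, Cd22, Slc4a1, Hprt and B2m are not described. Untested genes, chromosomal neighbours and a few tested genes outside the rule (Lat, Il5ra, Prtn3 and Kit) were named after their values were seen. The members, lists and alternatives were chosen with earlier results of these data known. Replicate numbers were not taken to pair the mice, as the labels give no pairing. Deviations of TG and WT arrays of the same number correlated at -0.04, -0.14 and -0.29, which cannot exclude a shared preparation.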

Additional observations from a re-analysis of the deposited data

Results flagged for a closer look

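A WT array lay far from the other 3 WT arrays, by Dixon's test on the gap to the nearest array over the group's range, in 13 of 45 named genes; chance gives about 1 in 20. In 8 of the 13 every WT value was under background. WT replicate 4 was the high array for Ear3, at 2.70 with the others at 2.17, and for Ctsg at 3.14, S100a8 at 3.35, Ccr2 at 3.66 and Emb at 3.36. Mpo was not among the 45 genes. It was at 6.95 on WT replicate 4, above background, and at 2.85 to 3.23 on the other WT arrays. WT replicate 3 stood out for Il3ra, Hpgds and Lcp2, low at 4.82, 4.28 and 2.96, and for Osm and Car1, high at 5.65 and 2.99. WT replicate 1 was low for Gp9 at 6.18 and stood above the lowest value for Fcer1a. WT replicate 2 was low for Csf2rb2, at 2.70 against 2.90. Where the other 3 arrays share a single value, any departure of the fourth is picked out, however small.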

How the results depend on the processing

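Of 21 alternatives that tested Ear3, it passed under 19, with differences from 4.31 to 6.37 (5.82 to 6.37 when 1 array was left out) and adjusted p from 0.000106 to 0.0719. It did not pass with a replicate block, fitted without WT replicate 4 (difference 6.14, adjusted p = 0.0719), or without WT replicates 3 and 4 (6.14, 0.0577). With a filter on a mean above 5 Ear3 was not tested. The count of members called was therefore 0 under those 3 alternatives and 1 under the others, 1 to 1 when 1 array was left out. The 1949 probe sets called in all became 199 with no filter, 5945 with array weights, 1172 with 1 probe set per gene, 4 with the replicate block, 277 with the Xist level as a covariate, 15 without WT replicates 3 and 4 and 687 without TG replicate 3 and WT replicate 4. Leaving out 1 array gave 138 (without TG replicate 2) to 2149. The 8 genes called in the lists around the lineages became 1, 14, 0, 2, 1 and 4 with no filter, array weights, the replicate block, the Xist covariate, without WT replicates 3 and 4, and without TG replicate 3 and WT replicate 4, and 1 to 12 when 1 array was left out. None of them reversed. Some of the alternatives hold fewer arrays or more probe sets in the fit. The causes of the changed counts were not tested. GCRMA's common lowest value hides differences among dim genes, so the 5 genes above background on no array could differ below that level.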
